A study of Mus musculus with 16 samples.

Results

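The elastic fibre and microfibril genes examined here are elastin (Eln), the fibrillins Fbn1 and Fbn2, the microfibril-associated genes Mfap2, Mfap4 and Mfap5, the fibulins Fbln1, Fbln2 and Fbln5, and Emilin1. They were found by their gene name among the spots of the array that are not controls, and all 10 were present, with 15 probes, among 22748 features tested. All 10 were well above background on every Control array, so none was tested only because of its level in an exposed group. The measurements come from whole hearts of C57BL/6 mice, 1 heart on each of 16 arrays, in 4 groups of 4. T1R1, T2R1 and T3R1 mice met an aggressor mouse on 1, 2 or 3 days and were then left for 1 day; they sat boxed in its cage and were also attacked in short bouts. Control mice sat in mesh boxes in a cage that held no aggressor, and their labels give 2 days and 1 day of rest, so T1R1 and T3R1 have no control of their own duration. The treatment text speaks of boxes for 6 hours a day over 5 or 10 days, which is longer than the group names say, and the group names were followed. The age and sex of the mice are not given in the sources used here.

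Elastic fibres give arteries, valves and the wall of the heart their recoil. They consist of a core of elastin, which lysyl oxidases crosslink, laid on a scaffold of microfibrils built from fibrillins. Microfibril-associated glycoproteins, fibulins and emilins bind the core and the scaffold, and latent TGF-beta binding proteins tether the growth factor TGF-beta to the microfibrils. In the heart these genes are expressed mainly by fibroblasts and by smooth muscle cells of vessels. RNA came from the whole organ, so more cells of a type and more RNA per cell cannot be told apart.

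Each probe is a 60-base oligonucleotide, and what a member's value means depends on the stretch of transcript that its probe reads. The following sequences are those of the members on which the results below turn, taken from the array files and written 5′ to 3′. Capitals mark AATAAA or ATTAAA, the letters of the usual polyadenylation signals. The Mfap2 probes are given first because they disagree, then the Fbln1 probes because that gene goes its own way, then the ends of the probes of 6 other members.
Mfap2 A_55_P2062793, its last 30 bases: tttatacaaaatAATAAAagtttttacaaa
Mfap2 A_55_P2181597, whole: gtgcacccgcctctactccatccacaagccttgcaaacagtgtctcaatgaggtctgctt
Fbln1 A_65_P08768, whole: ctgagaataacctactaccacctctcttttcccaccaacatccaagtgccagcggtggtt
Fbln1 A_55_P2088601, whole: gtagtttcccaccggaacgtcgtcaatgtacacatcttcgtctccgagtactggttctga
Fbln1 A_52_P588483, its last 30 bases: aagttgatggctgctgtagagtggcacata
Eln A_52_P609972, its last 30 bases: acatgatccctctctctttggttcccctgt
Fbn1 A_51_P467224, its last 30 bases: attaagtgtgtgtacactgtaacgtgctat
Mfap4 A_55_P2005470, its last 30 bases: gaggtctcAATAAActtcaggatctgatgg
Mfap5 A_55_P2062777, its last 30 bases: cggtactgacaatacattgtctatattgtg
Fbln2 A_52_P590535, its last 30 bases: ccttcatccactgtgttcctcaATTAAAaa
Emilin1 A_51_P222359, its last 30 bases: tatgacccagagacaggtgtattcactgca

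In the mm9 build that the array files use, the Mfap2 probes lie on the plus strand, at chr4:140571828-140571887 for A_55_P2062793 and chr4:140570920-140570979 for A_55_P2181597, so their first bases are 908 bases apart. The Fbln1 probes lie on the plus strand at chr15:85081927-85081986, chr15:85115550-85115609 and chr15:85115998-85116057, the first of them 33623 bases before the second. The probes of Eln (chr5:135179129-135179188) and Fbn1 (chr2:125126727-125126786) lie on the minus strand. Those of Mfap4 (chr11:61302147-61302206), Mfap5 (chr6:122478591-122478650) and Fbln2 (chr6:91222118-91222177) lie on the plus strand. The Emilin1 probe covers a span of 457 bases on the genome (chr5:31222545-31223001, plus strand), longer than its own 60 bases. No annotation of that build was used, so exon and UTR boundaries are not given.

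The arrays lay on 2 slides, with Control and T3R1 on the first and T1R1 and T2R1 on the other. Each slide thus allows 1 comparison within it, T3R1 against Control and T2R1 against T1R1. In the other 4, the effect of the slide cannot be told apart from that of exposure. Control replicate 1 stood apart: over all features its mean correlation was 0.97 with its own group and 0.988 with T3R1, and its 75th percentile of brightness was 547 scanner units, against 257 to 273 on the other Control arrays and 283 to 407 on the exposed arrays. Counts of called genes against Control, among the 10 and over all pathway genes, are given with and without it. Heart muscle markers were well above background on all arrays, 5 of 5. The number of arrays limits the precision of every value. The labels speak of individual hearts, and p-values measure the spread between these hearts only.

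Levels below are log2 values relative to the 75th percentile of the same array, so 0 is that percentile. They compare groups for 1 probe and do not rank genes. Differences are in log2 units with the standard error (SE) of limma, and p-values are limma's, adjusted by Benjamini-Hochberg over all 22748 features, with a threshold of 0.05.

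The longest exposure, T3R1, was set against Control first. Of the 10 genes, 5 rose and 0 fell: Fbn1, Mfap2, Mfap4, Mfap5 and Fbln2, by 1.11 to 2.04. Of all features 0.695% changed in this comparison, 0.506% upward and 0.189% downward. The median difference of the 10 genes was 1.16, and that of all features was -0.08. At an unadjusted p under 0.05 there were 9 of the 10, where all features gave 22.4%. Arrays of T3R1 all lay above all arrays of Control for 7 genes, which was so for 3.2% of features.

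**Figure D1:**
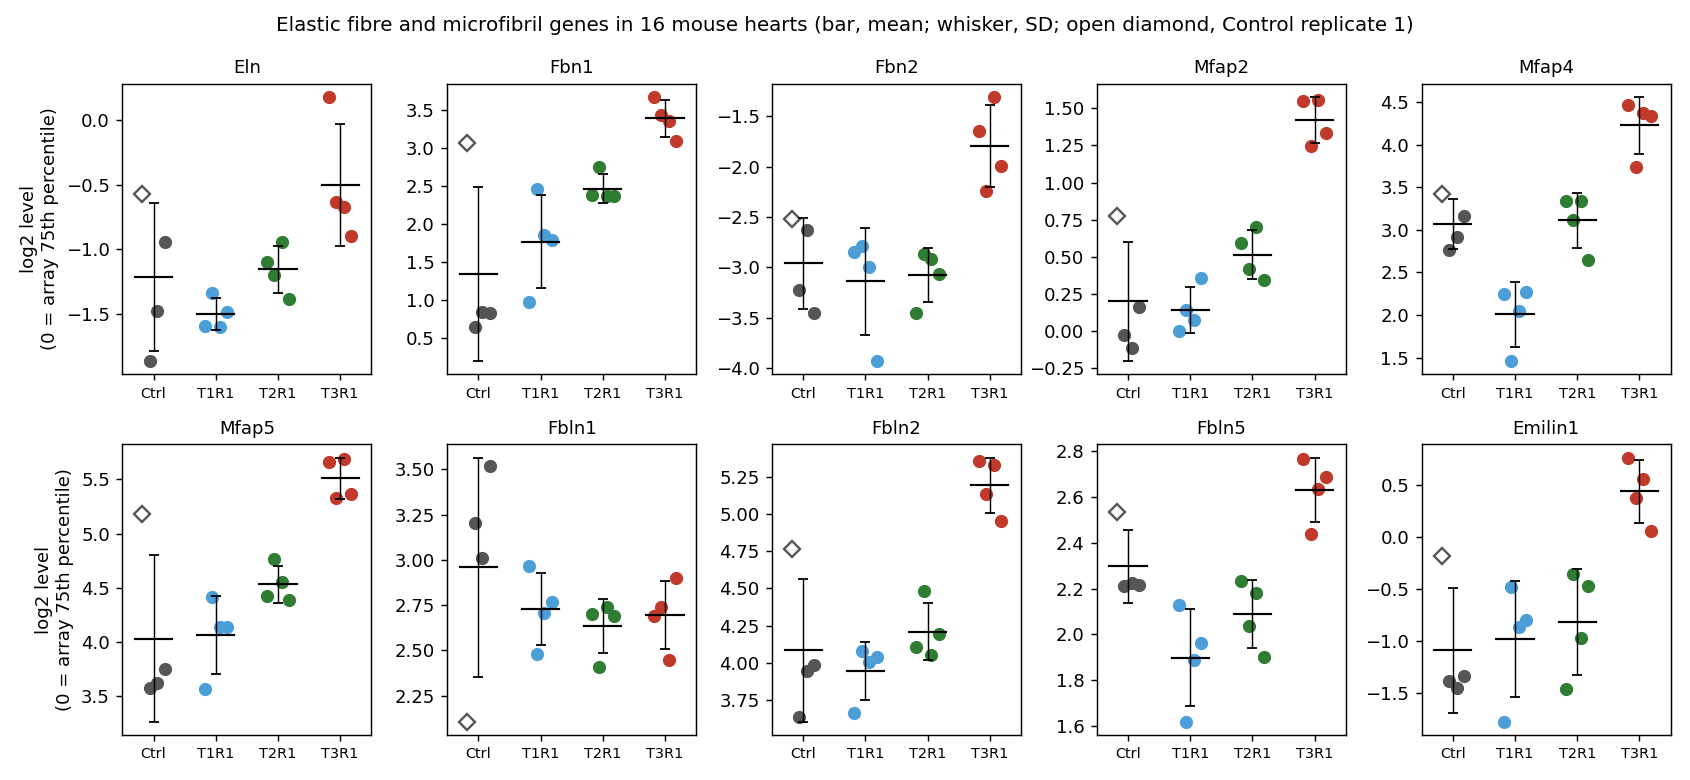
Level of each gene (log2, 0 = 75th percentile of the array) on each of the 16 arrays, by group; points are arrays, horizontal bars group means, whiskers SD (n = 4), and the open diamond is Control replicate 1. T3R1 has the highest mean for 9 of the 10 genes, and for Fbln1 Control has it; the diamond lies above the other 3 Control arrays for every gene but Fbln1, where it lies below them.

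Elastin itself, the core of the fibre, was not called. Eln lay at -0.57, -1.86, -1.48 and -0.94 on Control arrays 1 to 4 and at 0.18, -0.63, -0.67 and -0.90 on those of T3R1. The groups overlapped, with Control array 1 above 3 of the T3R1 arrays. The difference was 0.71 ± 0.26 (adjusted p = 0.133). With that array left out it was 0.92 (adjusted p = 0.0124).

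Fbn1, the main fibrillin of adult microfibrils, had the largest difference of the 10 genes. It lay at 3.05 on Control array 1 and at 0.64, 0.84 and 0.83 on the other Control arrays, and at 3.67, 3.43, 3.36 and 3.09 in T3R1. All T3R1 arrays were above all Control arrays, the lowest of them just above Control array 1. Fbn1 rose by 2.04 ± 0.44 (4.12-fold, adjusted p = 0.0489), and by 2.61 without Control replicate 1 (6.12-fold, adjusted p = 4.81e-05). Its call was close to the threshold and was lost in 19 of 28 other settings and left-out arrays, and over all 28 its difference was at least 1.81. Fbn2, a fibrillin best known from development, was dim: it lay at -2.52, -3.23, -2.63 and -3.46 in Control and at -1.65, -2.24, -1.31 and -1.996 in T3R1. The groups did not overlap, but the difference of 1.16 ± 0.28 missed the threshold (adjusted p = 0.0613). With Control replicate 1 left out it was 1.31 (adjusted p = 0.00608). With normexp background correction over all arrays it was 0.47.

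Mfap2, whose product MAGP-1 binds fibrillins, had the smallest p-value of the group. It lay at 0.78, -0.03, -0.11 and 0.16 in Control and at 1.55, 1.24, 1.56 and 1.33 in T3R1, with no overlap. Mfap2 rose by 1.22 ± 0.17 (2.33-fold, adjusted p = 0.00982), and by 1.41 without Control replicate 1 (adjusted p = 2.41e-05). A second probe of this gene did not show the rise, as described below. Mfap5, whose product MAGP-2 belongs to the same family, lay at 5.18, 3.58, 3.61 and 3.75 in Control and at 5.66, 5.33, 5.69 and 5.36 in T3R1. Control array 1 was nearer to T3R1 than to the other Control arrays. Mfap5 rose by 1.48 ± 0.29 (2.79-fold, adjusted p = 0.0364), and by 1.86 without that array (3.64-fold, adjusted p = 3.84e-05).

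Mfap4 encodes a fibrinogen-domain protein that binds elastin and is abundant around smooth muscle. It lay at 3.42, 2.76, 2.92 and 3.17 in Control and at 4.47, 3.74, 4.37 and 4.34 in T3R1, with no overlap. Control array 1 was the highest of its group, though less far out than for Fbn1 or Mfap5. Mfap4 rose by 1.16 ± 0.22 (2.24-fold, adjusted p = 0.0341), and by 1.28 without Control replicate 1 (adjusted p = 0.0019).

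The fibulins differed among themselves. Fbln2, which binds elastin and fibrillin and is expressed around coronary vessels and in developing valves, lay at 4.76, 3.64, 3.95 and 3.98 in Control and at 5.35, 5.13, 5.33 and 4.95 in T3R1, with no overlap. It rose by 1.11 ± 0.20 (2.16-fold, adjusted p = 0.0262), and by 1.34 without Control replicate 1 (adjusted p = 8.06e-05). Fbln5, which links elastin to cell surface integrins and is needed for fibre assembly, lay at 2.54, 2.21, 2.22 and 2.22 in Control and at 2.77, 2.44, 2.64 and 2.69 in T3R1. Its Control array 1 lay within the T3R1 range. The difference was 0.33 ± 0.12 (adjusted p = 0.134), and 0.41 without that array (adjusted p = 0.0196). Fbln1, found in elastic tissue and basement membranes, lay at 2.11, 3.20, 3.01 and 3.52 in Control and at 2.69, 2.74, 2.45 and 2.90 in T3R1. Here Control array 1 was the lowest of all 16 arrays. The difference was -0.26 ± 0.23 (adjusted p = 0.508), and -0.55 without that array (adjusted p = 0.014).

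Emilin1 encodes a glycoprotein at the boundary of elastin and microfibrils that restrains TGF-beta processing. It lay at -0.19, -1.39, -1.45 and -1.34 in Control and at 0.76, 0.37, 0.56 and 0.06 in T3R1. The groups did not overlap, yet the difference of 1.53 ± 0.33 was just short of the threshold (adjusted p = 0.051). It was 1.84 without Control replicate 1 (3.57-fold, adjusted p = 0.00105).

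**Figure D2:**
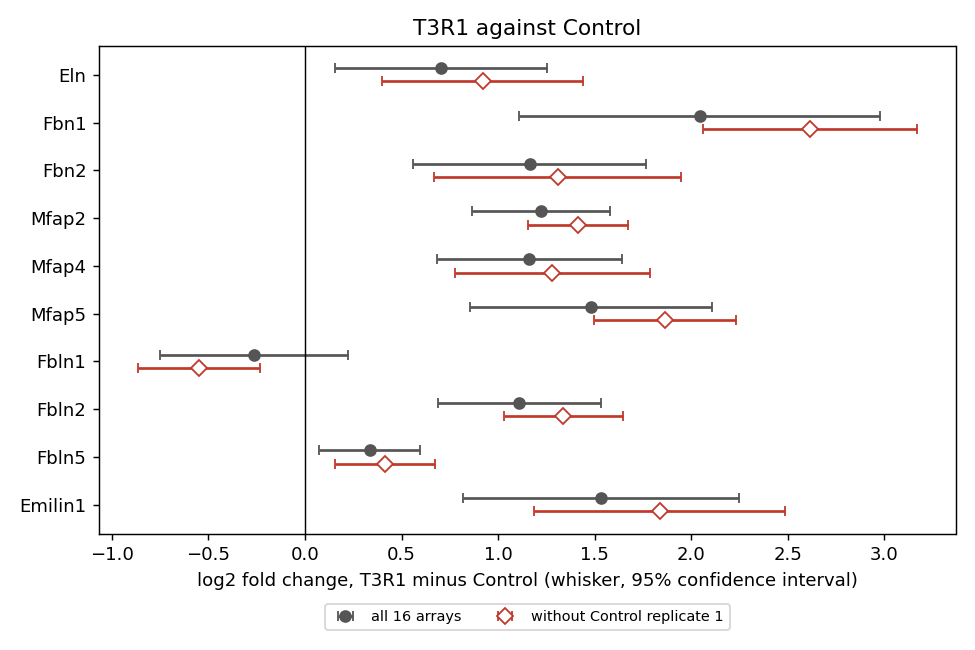
Log2 fold change of each gene, T3R1 minus Control, with its 95% confidence interval, over all 16 arrays (grey dots) and without Control replicate 1 (open red diamonds). Fbn1 lies farthest from 0, at 2.04 and 2.61, and Fbln1 is the only gene below 0, at -0.26 and -0.55; for each gene the value lies farther from 0 without that array.

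In T3R1 against Control all 10 genes passed without Control replicate 1, 9 upward and Fbln1 downward. The share of all features called was then 29.4%, with 10.2% upward and 19.2% downward. Leaving out another Control array lowered the count: 0 of the 10 genes passed without Control replicate 2, and 1 each without Control replicate 3 or 4, where 3, 8 and 9 features were called in all. A fit on the Control and T3R1 arrays alone called 0 of the 10, and 2 of all features. Without T3R1 replicate 1 or 3 there was 1, where 12 and 18 features were called in all. Without T3R1 replicate 2 or 4 there were 2, where 63 and 106 features were called. Without a T2R1 array, which enters only through the shared spread, there were 2 or 3, where 74 to 113 features were called. With all arrays 158 features were called. Over 28 other settings and left-out arrays Mfap4 and Fbln2 lost their calls in 10 each and Mfap5 in 17, and over 29, with the other probe counted, Mfap2 lost its call in 3. Each of the 5 stayed above 0 in all of them.

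T3R1 was then compared with the shorter exposures, which lay on the other slide, so the effect of exposure cannot be told apart here from that of the slide. Against T1R1, 9 of the 10 genes rose, the exception being Fbln1, where 22.9% of features changed and 7.65% rose. Against T2R1, 7 rose, where 26.9% of features changed and 6.58% rose. These comparisons share the T3R1 arrays with each other and with the comparison against Control. For 9 genes no T3R1 array overlapped T1R1, and for the same 9 none overlapped T2R1, where 9.55% and 12.4% of features lay entirely higher. The median difference was 1.31 against T1R1 and 0.95 against T2R1, and for all features -0.07 and -0.09.

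Mfap4 differed most between T3R1 and T1R1. It lay at 2.25, 1.46, 2.04 and 2.27 in T1R1 and at 3.34, 3.11, 3.34 and 2.65 in T2R1, below the lowest T3R1 array in both. T3R1 was higher by 2.22 ± 0.22 than T1R1 (4.67-fold, adjusted p = 5.79e-05) and by 1.12 ± 0.22 than T2R1 (adjusted p = 0.00233). Fbn1 lay at 0.97, 2.45, 1.85 and 1.79 in T1R1 and at 2.37, 2.74, 2.36 and 2.37 in T2R1. T1R1 was the more spread out, with its array 1 near the lower Control arrays. T3R1 was higher than T1R1 by 1.62 ± 0.44 (adjusted p = 0.0163), a call lost without T1R1 replicate 1 (1.35, adjusted p = 0.0511). Against T2R1 the difference of 0.92 ± 0.44 was not called (adjusted p = 0.131, and 0.00867 without Control replicate 1, which enters only through the shared spread).

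Eln lay at -1.59, -1.33, -1.60 and -1.49 in T1R1 and at -1.10, -1.20, -0.94 and -1.38 in T2R1. All of these were below the lowest T3R1 array, at -0.90, the nearest by a small margin. Eln rose by 1.00 ± 0.26 against T1R1 (1.99-fold, adjusted p = 0.0131), and differed by 0.65 ± 0.26 from T2R1 (adjusted p = 0.0743). Fbn2 lay at -2.85, -2.79, -2.99 and -3.93 in T1R1, where 2 of 4 arrays were well above background, and at -3.46, -2.87, -2.92 and -3.07 in T2R1. It rose by 1.34 ± 0.28 (adjusted p = 0.00408) and 1.28 ± 0.28 (adjusted p = 0.00439), or by 0.53 and 0.54 with normexp background correction.

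Mfap2 lay at 0.00, 0.14, 0.08 and 0.36 in T1R1 and at 0.59, 0.42, 0.70 and 0.34 in T2R1. T2R1 lay between T1R1 and T3R1 in its mean, with its lowest array inside the T1R1 range. Mfap2 rose by 1.28 ± 0.17 (adjusted p = 0.000212) and 0.90 ± 0.17 (adjusted p = 0.00137). Mfap5 lay at 3.56, 4.42, 4.13 and 4.13 in T1R1 and at 4.43, 4.77, 4.55 and 4.39 in T2R1. It rose by 1.45 ± 0.29 (adjusted p = 0.00322) and 0.98 ± 0.29 (adjusted p = 0.0236). The latter call was lost without 5 single arrays, of T2R1 or T3R1, at an adjusted p of up to 0.0638.

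Among the fibulins and emilin, Fbln2 lay at 3.66, 4.08, 4.004 and 4.04 in T1R1 and at 4.11, 4.48, 4.05 and 4.19 in T2R1, and rose by 1.25 ± 0.20 (adjusted p = 0.000678) and 0.98 ± 0.20 (adjusted p = 0.00235). Fbln5 lay at 2.13, 1.62, 1.89 and 1.96 in T1R1 and at 2.24, 2.04, 2.18 and 1.90 in T2R1. Its rises were the smallest of those called, 0.73 ± 0.12 (adjusted p = 0.000965) and 0.54 ± 0.12 (adjusted p = 0.0049), with a narrow spread within groups. Emilin1 lay at -1.78, -0.48, -0.87 and -0.80 in T1R1 and at -1.47, -0.36, -0.97 and -0.47 in T2R1. Its array 1 was the lowest in each of these groups, and it rose by 1.42 ± 0.33 (adjusted p = 0.00775) and 1.26 ± 0.33 (adjusted p = 0.0126). Fbln1 lay at 2.97, 2.48, 2.71 and 2.77 in T1R1 and at 2.70, 2.41, 2.74 and 2.69 in T2R1. T3R1 differed from these by -0.03 (95% confidence interval -0.52 to 0.45) and 0.06 (-0.43 to 0.55).

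T1R1 and T2R1 were compared with Control, also across slides and with the same 4 Control arrays. In T1R1, 1 of the 10 genes changed: Mfap4 fell by 1.06 ± 0.22 (adjusted p = 0.0091), with all T1R1 arrays below all Control arrays. Of all features 9.85% changed, 2.11% downward. Mfap4 still fell without Control replicate 1, by 0.94 (adjusted p = 0.0187), and passed in all 28 other settings and left-out arrays. Markers of adipocytes (3 of 4), smooth muscle (1 of 5) and cartilage and valve (1 of 4) also fell in T1R1 against Control by limma. Without Control replicate 1 these counts were 0, 2 and 1. The summed level of fibroblast markers was lower too, at 255 to 297 against 300 to 498, with 0 of 7 called. The part of these cell types in the fall of Mfap4 was not tested. Fbln5 also had its T1R1 arrays entirely below Control, which was so for 4.08% of features, and its difference of -0.40 ± 0.12 missed the threshold (adjusted p = 0.0536). With Control replicate 1 left out, Fbn1 rose by 0.99 (adjusted p = 0.0218) and Fbln1 fell by 0.51 (adjusted p = 0.0322). Of all features 17.8% then passed, 8.19% upward and 9.65% downward.

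In T2R1 against Control, 0 of the 10 genes passed by limma, and 1, Fbn1, had an unadjusted p under 0.05, while 18.4% of all features changed and 30.9% had an unadjusted p under 0.05. Fbn1 differed by 1.12 ± 0.44 (adjusted p = 0.0919) and the other 9 genes by -0.32 to 0.50. Leaving out Control replicate 1, 4 passed where 24.3% of features did (15% upward, 9.38% downward): Fbn1 rose by 1.69 (adjusted p = 0.00131), Mfap5 by 0.88 (adjusted p = 0.0042) and Mfap2 by 0.51 (adjusted p = 0.0109), and Fbln1 fell by 0.61 (adjusted p = 0.0121).

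T2R1 and T1R1 shared a slide. Of the 10 genes 0 passed by limma, as did 0 of all features (0%). At an unadjusted p under 0.05 there were 2 of the 10, Mfap2 and Mfap4, and 7.83% of features. Mfap4 was higher in T2R1 by 1.10 ± 0.22 (limma, unadjusted p = 0.000205, adjusted p = 0.494), with its 4 T2R1 arrays above all T1R1 arrays, as for 5.07% of features. Values of 9 genes were above 0, and 60.9% of features were.

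Over the 4 groups together, limma's F test found a difference for 9 of the 10 genes, all but Fbln1, and for 26.8% of features. T3R1 had the highest group mean for the same 9, and for 22.8% of features. Below T3R1 the order differed by gene. Control was the lowest for Fbn1, Mfap5 and Emilin1, and T1R1 was the lowest for Eln, Fbn2, Mfap2, Mfap4, Fbln2 and Fbln5. Only for Mfap4 did neighbours below T3R1 in this order differ past the threshold (Control above T1R1). For Fbn2 and Fbln5 the neighbour of T3R1 was Control, and for Eln and Fbn1 it was T2R1, and none of these 4 steps passed.

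**Figure D3:**
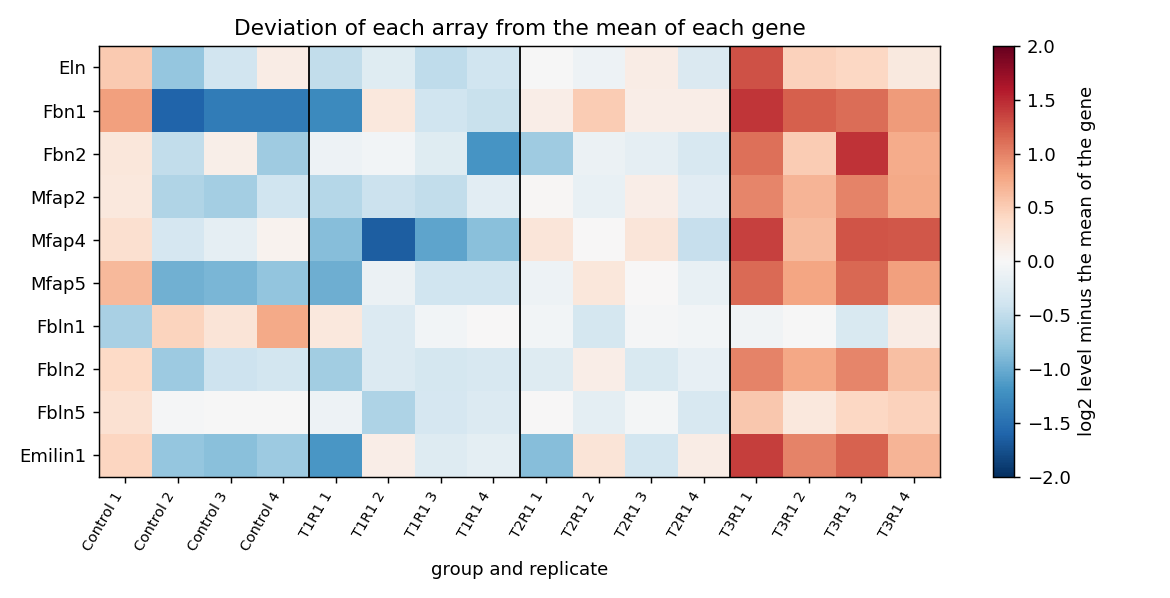
Deviation of the log2 level from the mean of each gene over the 16 arrays, with genes as rows and arrays as columns grouped by exposure; red is above and blue below the mean, and the scale runs from -2 to 2. The 4 T3R1 columns are red for every gene but Fbln1, and for the same 9 genes Control replicate 1 is red where the other Control arrays are mostly blue.

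Across the 16 arrays the 9 genes other than Fbln1 had Pearson correlations of 0.48 to 0.97 over their 36 pairs, with a median of 0.78. The highest was between Fbn1 and Mfap5. Fbln1 correlated at -0.71 to -0.04 with the others, the lowest with Fbn1. These values share the arrays and their scaling, and they describe group differences as well as the spread within groups.

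Where a gene had several probes, these were compared. Both probes of Mfap2 were well above background on all arrays. The probe whose last bases hold AATAAA, given above, represents the gene in the results and rose in T3R1. The other, 908 bases upstream, lay at -1.07, -0.49, -0.80 and -0.68 in Control, from -0.81 to -0.09 in T1R1, from -0.56 to -0.08 in T2R1 and at -0.25, -0.60, -0.49 and -0.37 in T3R1. Its T3R1 arrays lay within the range of the other exposed groups. With every probe tested on its own, it differed by 0.33 ± 0.17 from Control (adjusted p = 0.264), by -0.06 from T1R1 (adjusted p = 0.837) and by -0.15 from T2R1 (adjusted p = 0.537). The rise of Mfap2 is thus a value of A_55_P2062793. Which transcripts each probe reads was not tested.

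**Figure D4:**
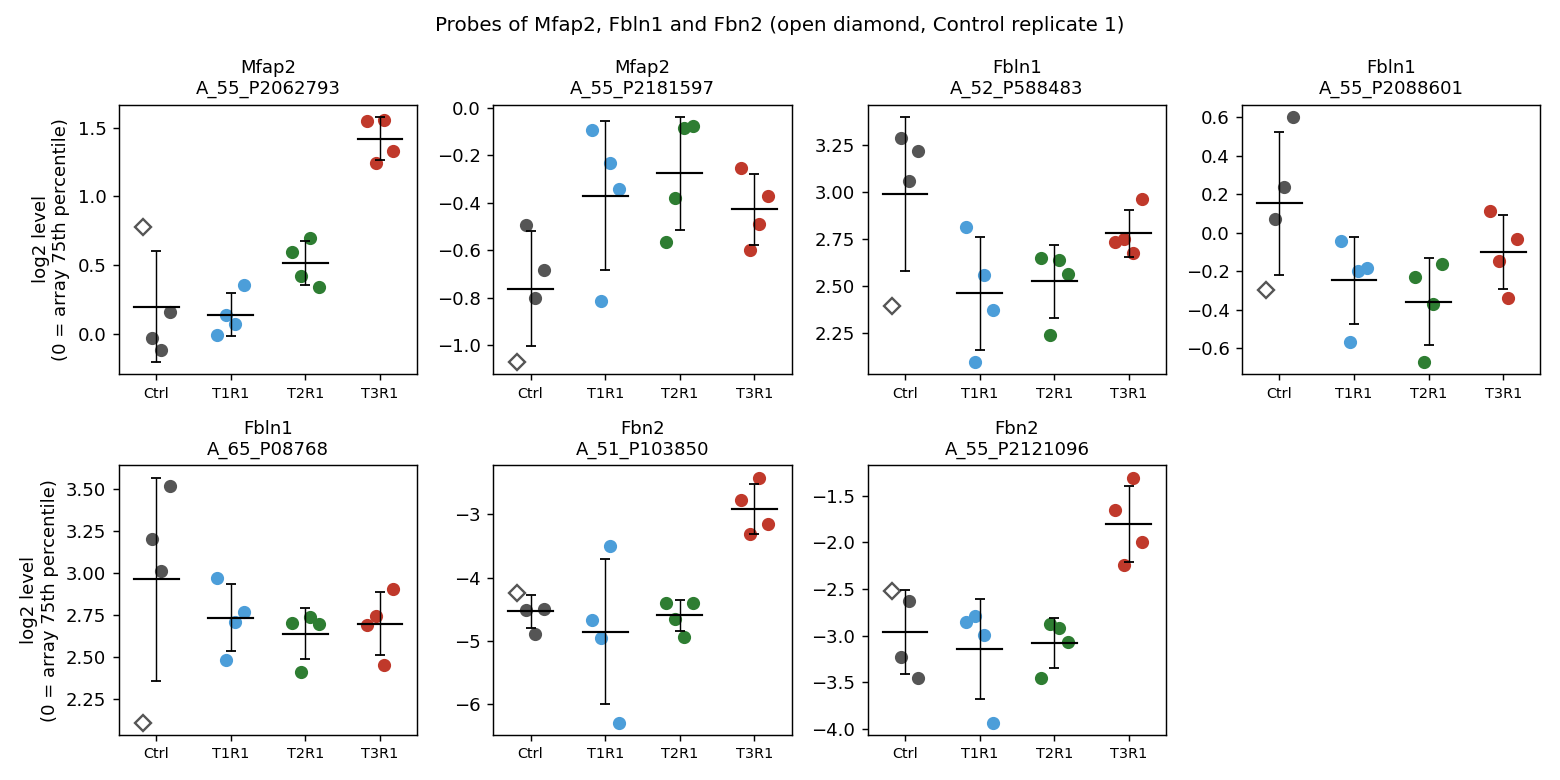
Levels (log2, 0 = 75th percentile of the array) of single probes of Mfap2, Fbln1 and Fbn2 on each array, by group, with mean, SD (n = 4) and Control replicate 1 as an open diamond. T3R1 stands above the other groups for Mfap2 probe A_55_P2062793 and Fbn2 probe A_55_P2121096, not for Mfap2 probe A_55_P2181597 or any Fbln1 probe; Fbn2 probe A_51_P103850 was kept only because T3R1 was well above background.

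The 3 Fbln1 probes, at both ends of a stretch of 34071 bases, gave like results. Against Control, T3R1 differed by -0.26, -0.25 and -0.21 on them, T1R1 by -0.23, -0.40 and -0.53, and T2R1 by -0.32, -0.51 and -0.47, none past the threshold. Control replicate 1 was the lowest Control array on each. Without it, all 3 probes were lower in T1R1 and T2R1 (adjusted p from 0.00999 to 0.0417), and in T3R1 only A_65_P08768 was (adjusted p = 0.0155). The second Fbn2 probe was dimmer, well above background on 1 of 4 Control arrays, 1 of T1R1, 2 of T2R1 and all 4 of T3R1. It was therefore kept through T3R1 alone, and its levels, with means of -4.53 ± 0.27 in Control and -2.91 ± 0.40 in T3R1 (SD, n = 4), are a description and lend no support to the first Fbn2 probe. A second Fbln5 probe was well above background on 0 arrays and was not tested.

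The pathway around the fibre was followed in 57 other genes, of which 56 were on the array and 51 were tested. In T3R1 against Control, 5 rose and 0 fell. The shares of features called in each comparison are those given above. Of 6 genes of elastin crosslinking, the lysyl oxidases Lox, Loxl1, Loxl2, Loxl3 and Loxl4 and the copper transporter Atp7a, 3 rose. The median of the 6 was 1.79. Lox, which starts the crosslinking of elastin and collagen, lay at -0.07, -4.16, -4.40 and -4.36 in Control and at 1.08, 0.56, 1.00 and 0.08 in T3R1. Control array 1 was far above the other Control arrays, which were dim and of which 1 was not well above background. The size of the difference depends on those dim levels, and no other background correction is given for Lox. Lox rose by 3.93 ± 0.83 (adjusted p = 0.0485), and by 4.99 without Control replicate 1. Loxl2 rose by 2.52 ± 0.52 (adjusted p = 0.0422) and Loxl3 by 1.71 ± 0.36 (adjusted p = 0.0478), whereas Loxl1, which acts on elastin, was at 1.26 ± 0.27 (adjusted p = 0.051). With Control replicate 1 left out, 5 of the 6 rose, Loxl2 by 3.18, Loxl3 by 2.21 and Loxl1 by 1.58 among them.

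Of 4 latent TGF-beta binding proteins, Ltbp3 rose by 0.51 ± 0.10 (adjusted p = 0.0422), and Ltbp2 was at 2.51 ± 0.58 (adjusted p = 0.0561). Of 8 proteoglycans and matrix partners, Bgn, the matrix proteoglycan biglycan, rose by 0.92 ± 0.14 (adjusted p = 0.0176), and fibronectin (Fn1) was at 1.90 ± 0.46 (adjusted p = 0.0613). These 4 values were 0.58, 3.24, 1.07 and 2.47 without Control replicate 1, and all 4 then passed. In that fit 2 of the 4 latent TGF-beta binding proteins rose and 1 fell, and of the 8 proteoglycans and matrix partners 5 rose and 1 fell. Over all arrays Ltbp1 and Ltbp4 had lower means in T3R1 than in Control, 1.59 against 1.74 and 5.73 against 6.38, and neither was called. In the other 6 lists 0 genes passed by limma. Those lists are other fibulins and hemicentins, other emilins and multimerins, ADAMTS proteins of microfibrils, integrins, elastin-degrading proteases, and TGF-beta ligands and effectors. Over all 51 the median was 0.37. Leaving out Control replicate 1, 23 rose and 5 fell.

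Against T1R1, 18 of the 51 rose in T3R1 and 2 fell, and against T2R1, 17 rose and 3 fell. Lox, Loxl1, Loxl2 and Loxl3 rose against T1R1, by 3.97, 1.15, 2.36 and 2.32. Lox was dim in T1R1, at -4.25 to -1.65, with 3 of 4 arrays well above background. Ltbp2 rose by 2.84 ± 0.58 (adjusted p = 0.00333) and Ltbp3 by 0.63 ± 0.10. Efemp2, the fibulin that brings Lox to elastin, rose by 1.00 ± 0.27 (adjusted p = 0.0164), and Adamtsl2, which binds fibrillin-1, by 1.33 ± 0.18. Of the proteases, Mmp2, Ctsk and Ctss rose, by 0.62, 1.41 and 1.42, and of the integrins Itga8, Itgb3 and Itgb5, by 1.01, 0.86 and 0.55. Vtn, the plasma adhesion protein vitronectin, fell by 0.78 ± 0.16, and Adamts17 fell by 1.23 ± 0.34, with 3 of 4 arrays well above background in each group. Against Control, T1R1 had 2 of the 51 higher and 4 lower, and T2R1 had 3 higher and 4 lower. Without Control replicate 1 these counts were 4 and 5 in T1R1 and 13 and 5 in T2R1. Integrin alpha 8 (Itga8) fell in both, by 1.22 ± 0.22 and 0.88 ± 0.22, as did Smad3, a carrier of the TGF-beta signal, by 0.60 ± 0.10 and 0.57 ± 0.10. Without that array both genes still fell in both groups, Itga8 by 1.02 and 0.68 and Smad3 by 0.66 and 0.62. In T2R1 against T1R1, 0 passed by limma.

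**Figure D5:**
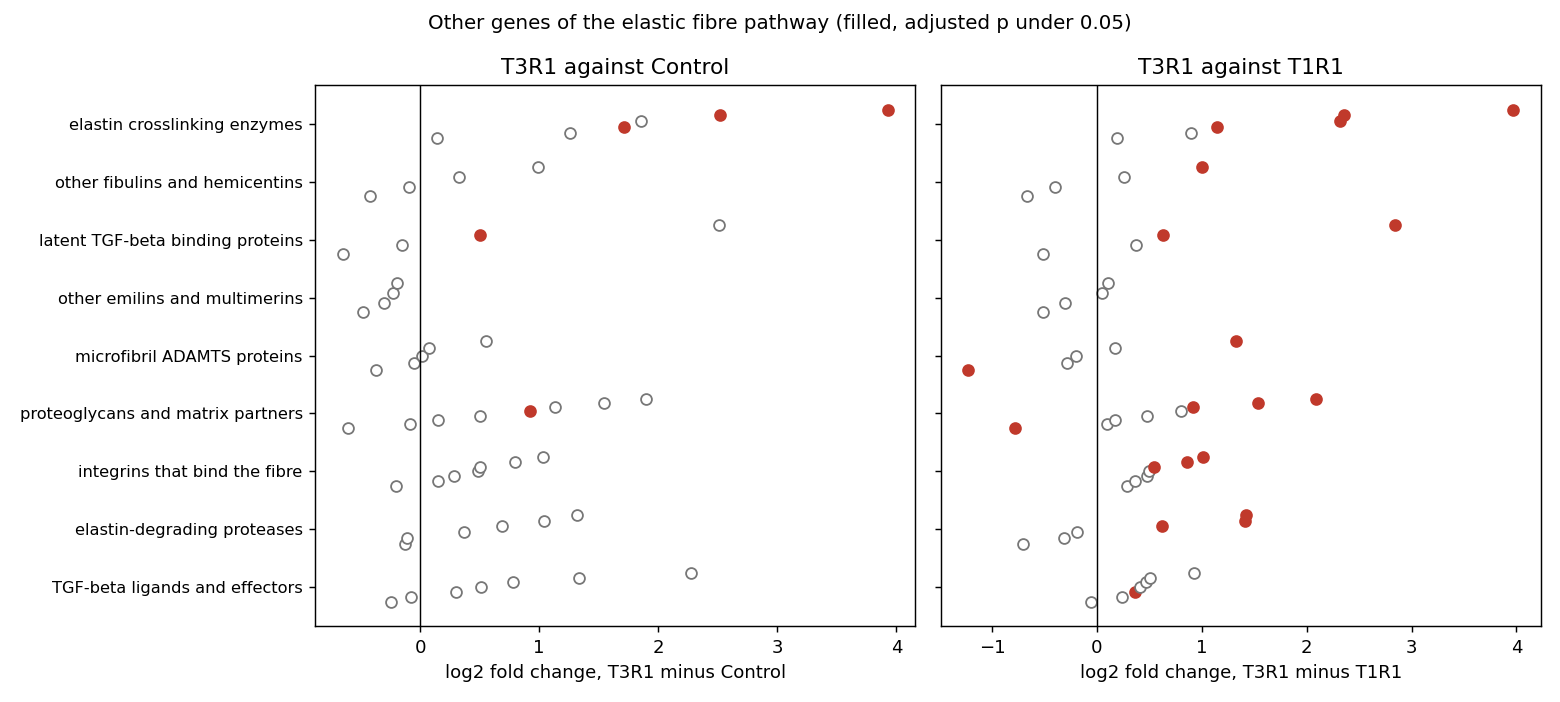
Log2 fold changes of 51 other genes of the elastic fibre pathway, in 9 lists, for T3R1 minus Control (left) and T3R1 minus T1R1 (right); each circle is a gene and filled circles passed the threshold. In the left panel 5 filled circles lie right of 0 and 0 lie left of it, and in the right panel 18 lie right of 0 and 2 left.

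Among the marker lists of cell types, only that of fibroblasts had genes called in T3R1 against Control over all arrays. The summed level of 7 fibroblast markers, in units of the 75th percentile, was 546 to 686 in T3R1, 300 to 324 on Control arrays 2 to 4, 498 on Control array 1, 255 to 297 in T1R1 and 349 to 377 in T2R1. All 7 were well above background on every array, and 3 rose in T3R1 against Control (5 without Control replicate 1) and 6 against T1R1. Those 3 were the collagens Col1a1, Col1a2 and Col3a1, which rose by 2.30 ± 0.42, 1.81 ± 0.29 and 2.52 ± 0.50. Dcn and Pdgfra, which also mark resting fibroblasts, were at -0.09 ± 0.11 and 0.10 ± 0.11. Neither these nor the remaining markers, Lum and Tcf21, were called over all arrays. The median of the 7 was 0.46, and 0.65 without Control replicate 1. The summed level of 5 smooth muscle markers was 126 to 140 in T3R1, 101 to 125 in Control, 63.4 to 82.4 in T1R1 and 83.6 to 103 in T2R1. Of these 0 rose against Control by limma, 2 without Control replicate 1 and 3 against T1R1, and all 5 were well above background on every array. The 3 proliferation markers summed to 5.99 to 8.69 in T3R1, to 8.81 on Control array 1, and to 0.43 to 0.73 on the other Control arrays. The 4 leukocyte markers summed to 13.7 to 15.4 in T3R1, to 15.4 on Control array 1, and to 6.05 to 6.81 on the others. The 5 heart muscle markers summed to 1438 on Control array 1, 2537 to 3370 on the others and 1528 to 2685 in T3R1. Of the last 3 lists 0 genes were called in T3R1 against Control by limma, but without Control replicate 1 all 3 proliferation markers and 2 leukocyte markers rose and 2 heart muscle markers fell. The 4 adipocyte markers tested summed to 43.5 to 132 in Control, 21.0 to 49.4 in T1R1, 36.8 to 66.5 in T2R1 and 50.1 to 106 in T3R1, and 2 of them were well above background on all T1R1 arrays. In T1R1 against Control, where Mfap4 fell, 3 of these 4 fell with a median of -2.77 (0 without Control replicate 1, at a median of -2.34), and in T3R1 against T1R1 2 rose with a median of 2.35. In T1R1 against Control 1 smooth muscle and 1 cartilage and valve marker fell too (2 and 1 without Control replicate 1). Markers of the other 8 tissues and cell types, from endothelium to liver, had 0 genes called in T3R1 against Control. Without Control replicate 1, 2 endothelial, 2 atrial and 1 skeletal muscle marker fell there and 1 of cartilage and valve rose. The shares of all features called in each comparison are those given above. In T3R1 against Control without Control replicate 1 they were 10.2% upward and 19.2% downward. The part of these cell types in the results was not tested.

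Over the 16 arrays, the genes whose levels followed the mean standardized profile of the 10 most closely were Col1a2 (Pearson r = 0.981), Serpinf1 (0.97), Grn (0.97), P3h3 (0.968), Col16a1 (0.964), Loxl3 (0.962), Bmp1 (0.962) and Ppic (0.961). They encode, among others, chains of collagens I and XVI, an enzyme that modifies collagen (P3h3) and the procollagen C-proteinase (Bmp1). The nearest to Eln alone were Igf1 (0.894), Ccdc80 (0.892), Dio2 (0.878) and Clec11a (0.876). These likenesses describe the arrays and carry no test.

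Promoter windows of 250 bases before the start site were found in the RefSeq table (GRCm38.p6) for 6 of the 10 genes, in 9 windows. Those of Fbn1 and Fbln1 are shown because these genes had the largest rise and the opposite sign in T3R1 against Control. Capitals mark matches, on either strand, to the letters of the TATA box (TATAAA), the GC box (GGGCGG), the AP-1 site (TGACTCA), the TEAD site (GGAATG), the SMAD site (CAGACA) or the E-box (CACGTG), so CCGCCC and TGTCTG are matches on the opposite strand. The Fbn1 window is chr2:125506439-125506688 on the minus strand, and the Fbln1 window is chr15:85205758-85206007 on the plus strand.
Fbn1: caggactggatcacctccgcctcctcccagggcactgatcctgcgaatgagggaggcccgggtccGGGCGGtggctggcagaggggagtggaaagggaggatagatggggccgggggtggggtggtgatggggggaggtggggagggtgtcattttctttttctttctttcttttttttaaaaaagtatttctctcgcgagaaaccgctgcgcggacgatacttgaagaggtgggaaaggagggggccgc
Fbln1: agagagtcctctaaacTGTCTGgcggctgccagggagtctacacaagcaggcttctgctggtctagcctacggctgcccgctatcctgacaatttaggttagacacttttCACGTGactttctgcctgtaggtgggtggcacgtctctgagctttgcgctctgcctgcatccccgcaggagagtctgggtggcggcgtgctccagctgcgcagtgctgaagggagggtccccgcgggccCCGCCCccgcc

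The Fbn1 window holds 1 match, to the GC box, and the Fbln1 window holds 3, to the GC box, the SMAD site and the E-box. The GC box was in a window of 5 of the 6 genes, in 5 of their 9 windows, and in 32.7% of all 32851 windows of that length. The SMAD site was in 4 of the 6 genes and 5 of the 9 windows (17.1% of all windows). The TEAD site was in 1 gene and 1 window (Mfap2, 12.6%), and the E-box in 1 gene and 2 windows (Fbln1, 6.0%). The TATA box and the AP-1 site were in 0 of the 6 and in 12.4% and 4.5% of all windows. The 6 genes were Fbn1, Mfap2, Fbln1, Fbln2, Fbln5 and Emilin1, and Mfap2, Fbln1 and Fbln5 have several windows each, which overlap for Fbln1. These matches describe the letters only.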

How the data were processed

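RNA of 16 hearts was read on 1-colour Agilent arrays. Per the file headers, the processed signal intensity was made with Feature Extraction 10.7.3.1, with background subtracted and no scaling between arrays, with spot flags of 0 or 1. The deposited value table holds log2 values, the same sorted values on each array, of unstated making, and served as an alternative. The log2 processed intensity was reduced by the 75th percentile of its array, outlier spots were left out, and repeat spots were averaged. Probes stayed in where 1 group or more had them well above background on each of its 4 arrays, which left 31369 of 55681, and the brightest probe represented each gene. Names were updated through RefSeq accessions for 26762 probes. Groups were compared with limma 3.58.1 (R 4.3.3) over all 16 arrays in 6 contrasts, with 12 residual degrees of freedom, adjusted by Benjamini-Hochberg at 0.05. No value was missing and no spot saturated among the 10 genes. The genes, pathway lists and marker lists were chosen with earlier results of these data known. Named pathway genes are, per list and comparison, up to 4 of smallest p. The fit was tested on simulated data drawn independently for each gene and array, with no array standing apart and no effect of slide. That test therefore does not bear on how the calls depend on single arrays or on the slide. Alternatives covered background correction, scaling, the filter, probe choice, variance prior, array weights, arrays in the fit, replicate block, thresholds and left-out arrays. The fit without Control replicate 1 and T1R1 replicate 1 together, and each other probe on its own, were added after seeing the data.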

Additional observations from a re-analysis of the deposited data

Results flagged for a closer look

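Of 40 groups of 4 arrays, 6 held an array that lay apart. Its gap to its nearest neighbour took a share of the whole range above Dixon's 95% critical value. Chance gives this for about 1 independent group in 20, but the 40 share the same 16 arrays across correlated genes. The count of 6 is therefore not comparable with that rate. In 4 of the 6 the array was Control replicate 1, the highest of its group. Its share was 0.915 for Fbn1, 0.890 for Mfap5, 0.965 for Fbln5 and 0.913 for Emilin1. In T2R1, replicate 2 was the highest for Fbn1 (0.9747) and the lowest for Fbln1 (0.863).

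T3R1 differed from T1R1 and from T2R1 by limma's test of the difference itself, for the genes named here. In T2R1 against T1R1, 0 of the 10 genes passed by that test. T3R1 was higher than T1R1 by 0.995 for Eln, 1.62 for Fbn1, 1.344 for Fbn2, 1.277 for Mfap2, 2.224 for Mfap4, 1.449 for Mfap5, 1.246 for Fbln2, 0.733 for Fbln5 and 1.422 for Emilin1 (log2). T3R1 was higher than T2R1 by 1.279 for Fbn2, 0.905 for Mfap2, 1.119 for Mfap4, 0.978 for Mfap5, 0.984 for Fbln2, 0.543 for Fbln5 and 1.258 for Emilin1. T3R1 lay on another slide than both, and exposure cannot be told apart from slide in these differences.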

How the results depend on the processing

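In T3R1 against T1R1 and against T2R1, and in the F test, the number of the 10 genes past the threshold stayed within 1.5 times that reported in each alternative: it was 8 to 9, 6 to 9 and 8 to 10 with single arrays left out. It was 0 in T2R1 against T1R1 throughout. The number against Control was less settled. In T3R1 against Control, where 5 passed, it was 3 with quantile normalization, 1 with scaling to the median of an array, 1 with no filter on dim probes, 10 with array weights, 0 with only those groups in the fit, 10 without Control replicate 1 and T1R1 replicate 1 together, and 0 to 10 with single arrays left out. In T1R1 against Control, where 1 passed, it was 3 with median scaling, all lower, 2 with a filter on all 16 arrays, 2 with an intensity trend and robust prior, 2 with array weights (1 of them higher), 2 at an adjusted p under 0.1, 5 without those 2 arrays (2 higher, 3 lower) and 1 to 3 with single arrays left out. In T2R1 against Control, where 0 passed, it was 2 with median scaling, both lower, 1 with the mean of the probes of a gene, 4 with array weights (3 higher, 1 lower), 1 at an adjusted p under 0.1, 4 without those 2 arrays and 0 to 4 with single arrays left out. The cause was not tested. The calls among all features moved too: from 158 in T3R1 against Control to 121, 24, 16, 7692, 2 and 7053 in the first 6 of these settings, from 2241 in T1R1 against Control to 10751 with median scaling (10128 lower) and 4486 with array weights, and from 4183 in T2R1 against Control to 9154 (7764 lower) and 8847. In T1R1 against Control 1692 features were called with the filter on all 16 arrays and 2162 with the intensity trend and robust prior. Without Control replicate 1 and T1R1 replicate 1 there were 4999 in T1R1 (2147 higher, 2852 lower) and 5881 in T2R1 against Control. The mean of the probes of a gene gave 4280 in T2R1 against Control. Median scaling moved the median of all features to -0.44 in T1R1, -0.37 in T2R1 and -0.11 in T3R1 against Control, and to 0.33 and 0.26 in T3R1 against T1R1 and T2R1. With the replicate number as a block, 2 genes passed in T1R1 and 2 in T3R1 against Control, where 2264 and 43 features were called. The numbers do not pair the arrays: of 24 pairs of equal number 9 correlated above 0.1, from -0.32 to 0.39, and 5 of 16 arrays correlated best with their own number. On Mfap2's other probe the direction turned, to -0.058 in T3R1 against T1R1 and -0.152 against T2R1. Slide as a random block gave no separate value, since each group lay on 1 slide, and it was left out. Fbn2, Lox, Loxl4, Mmp12 and Adamts17 are among the genes that were not well above background on every array.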
